A study of Mus musculus with 6 samples.

Results

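The 8 genes described here encode the class I histone deacetylases (*Hdac1*, *Hdac2*, *Hdac3* and *Hdac8*) and core subunits of the nuclear receptor corepressor (NCoR) complex (*Ncor1*, *Tbl1x*, *Tbl1xr1* and *Gps2*). Members were chosen by function, and the Ensembl identifiers of the count files were matched to these symbols in the GENCODE M21 annotation of GRCm38. They are 8 of the 46517 genes in the files. All 8 passed the filter on low values, in which 1 or more pools had to reach 1 cpm (counts scaled to the library total), and 14967 genes passed it in all.

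RNA was taken from inguinal white adipose tissue (IngWAT), a subcutaneous fat depot, of C57Bl6 mice on chow diet aged between 5 and 9 months. The floxed mice carried *Hdac3* alleles that Cre recombinase can excise, and the labels name no Cre for them. H3atKO mice carried the floxed alleles together with an Adipoq-cre transgene. In this model the adiponectin promoter drives Cre, so excision is directed to adipocytes and *Hdac3* stays intact in the other cells of the depot. Each genotype had 3 RNA-seq samples, and each sample was a pool of RNA from 2 or 3 mice of that genotype. Values of single pools are listed in the order of the replicate numbers 1, 2 and 3. The comparison asks how the genes of the enzyme family and of its corepressor complex are expressed where *Hdac3* has been deleted in fat.

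Class I histone deacetylases remove acetyl groups from histone tails, a change associated with closed chromatin and low transcription. HDAC1 and HDAC2 act in the Sin3, NuRD and CoREST complexes, whereas HDAC3 is the catalytic subunit of the NCoR complex and needs contact with its corepressor scaffold to be active. Unliganded nuclear receptors such as those for thyroid hormone and retinoic acid, and the heme receptors of the REV-ERB family, recruit the NCoR complex to their target genes. In adipocytes the complex is known as a corepressor of PPARG, the master regulator of fat cell genes.

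Reads counted on genes ranged from 23865507 to 35200685 per sample, and 3 counts correspond to between 0.0852 and 0.126 cpm. This floor covers counting error only. Genes of the mitochondrial genome took between 6.92% and 12.9% of the counts in floxed and between 26.9% and 35.3% in H3atKO pools. Expression also varied with GC content, the share of G and C bases in a gene's longest transcript. Each pool's departure from the gene's mean was set against GC content over 14922 genes, which share their libraries, and the rank correlation (Spearman's rho) lay between 0.0969 and 0.800 in floxed and between -0.711 and -0.433 in H3atKO pools. GC content therefore orders the genotypes completely, and a difference that follows GC content cannot be told apart from one of genotype. For this reason each member is given with its GC content and with a value after GC correction, in which the smooth trend of each pool's log2 values over GC content was removed.

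*Hdac3* RNA fell to 28.5% of the floxed level in H3atKO pools. The gene (ENSMUSG00000024454, minus strand of chromosome 18 from 37935844 to 37955016 in GRCm38) received 3139, 3339 and 2709 counts in the floxed pools and 666, 413 and 204 counts in H3atKO pools. Scaled by library size and TMM factor, its normalized expression was 68.9, 80.3 and 65.8 cpm in floxed and 27.4, 21.1 and 12.9 cpm in H3atKO pools. Every floxed pool was above every H3atKO pool. The mean was 71.7 ± 7.61 cpm (SD, n = 3) in floxed pools and 20.5 ± 7.28 cpm (SD, n = 3) in H3atKO pools, and the log2 fold change was -1.83 with a standard error of 0.32 (adjusted p = 0.0213, limma). The GC content of *Hdac3* is 47.1%, near the median of 49.2% over the genes tested, and after GC correction the log2 fold change was -2.07 (adjusted p = 0.0182, limma). The call was lost when any pool but floxed replicate 3 was left out. Without floxed replicate 1 or 2, the adjusted p from limma was 0.0607 or 0.107, and without H3atKO replicate 1, 2 or 3 it was 0.0534, 0.0537 or 0.0721, while the log2 fold change stayed between -2.11 and -1.56.

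The RNA that remained differed among the H3atKO pools. It was 38.3%, 29.4% and 18.0% of the floxed mean, and 32.9%, 25.4% and 14.3% after GC correction. As a ratio to *Hdac1* within the same pool, a measure in which the library scaling cancels, it was 42.0%, 42.3% and 24.8% of the floxed mean ratio. On each of these scales replicate 3 had the least. The counts are per gene, so they do not show which exons the remaining reads came from or which cells made them. The summed expression of 9 B and T lymphocyte markers was 331, 22.6 and 402 cpm in H3atKO pools, so the pool with the least *Hdac3* had the highest sum of lymphocyte markers. For 8 stromal progenitor markers the sum was 990.1, 1119 and 1286 cpm, again highest in replicate 3, and for 5 endothelial markers it was 429, 571 and 441 cpm. The part of these cells in the remaining *Hdac3* RNA was not tested. In bulk tissue, fewer cells of a type and less RNA per cell cannot be told apart.

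**Figure D1:**
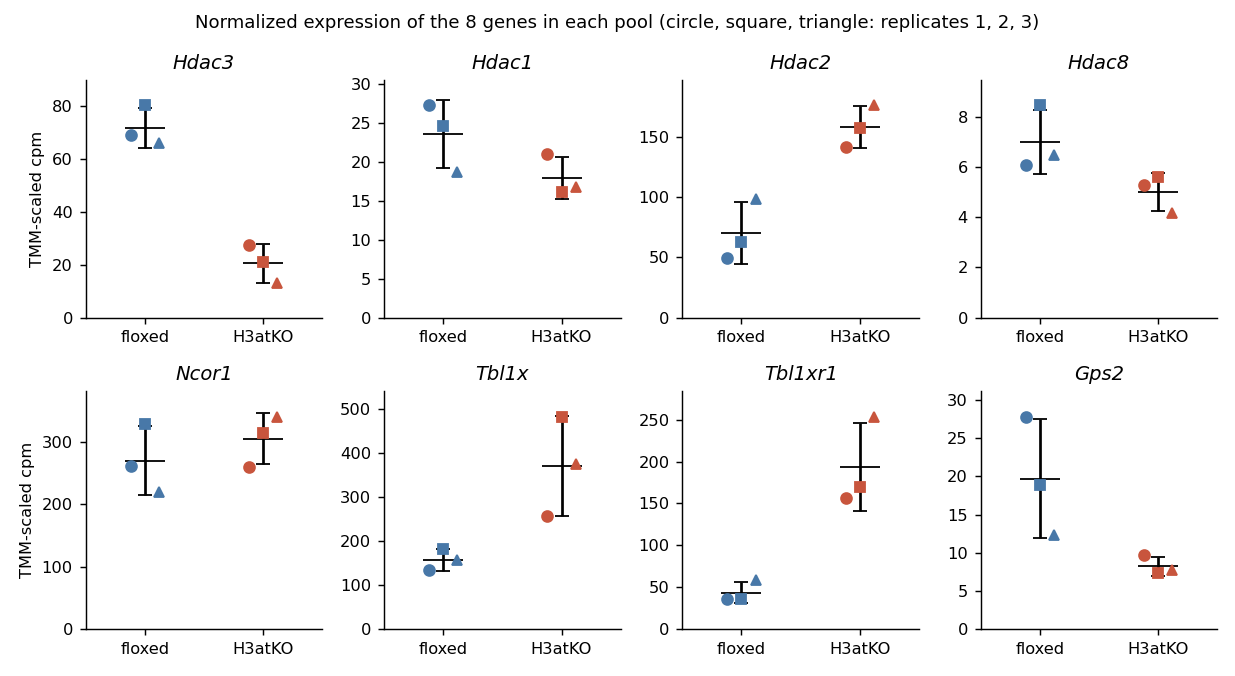
Normalized expression (TMM-scaled cpm, y axis from 0) of the 8 genes in the floxed (blue) and H3atKO (red) pools, with the group mean and SD (n = 3) in black. *Hdac3* lay between 65.8 and 80.3 cpm in floxed and between 12.9 and 27.4 cpm in H3atKO pools, and *Tbl1xr1* and *Hdac2* were higher in every H3atKO pool than in any floxed pool.

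Of the 8 genes, 3 were called upregulated in H3atKO pools (*Hdac2*, *Tbl1x* and *Tbl1xr1*) and 1 down-regulated (*Hdac3*) by limma at an adjusted p under 0.05. Over all genes tested, 9.42% were called upregulated and 7.07% down-regulated. The median log2 fold change of the 8 genes was -0.09, the same to this precision as the median of all genes tested, -0.09. The groups did not overlap for 6 of the 8 genes, all except *Hdac1* and *Ncor1*, against 51.7% of all genes tested. After GC correction 1 gene was called upregulated (*Tbl1xr1*) and 1 down-regulated (*Hdac3*), against 5.59% and 3.11% of all genes, and the groups did not overlap for 5 of the 8 genes, against 39% of all genes. With the replicate number as a block, which the labels share between the genotypes, *Gps2* was also called down-regulated, so that 3 genes rose and 2 fell, against 24.8% and 28.7% of all genes. With block and GC correction in 1 fit, *Tbl1x* and *Tbl1xr1* rose and *Hdac3* and *Hdac8* fell, against 13.1% and 9.71% of all genes. *Hdac3* and *Tbl1xr1* were called in the same direction in all 4 of these fits.

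**Figure D2:**
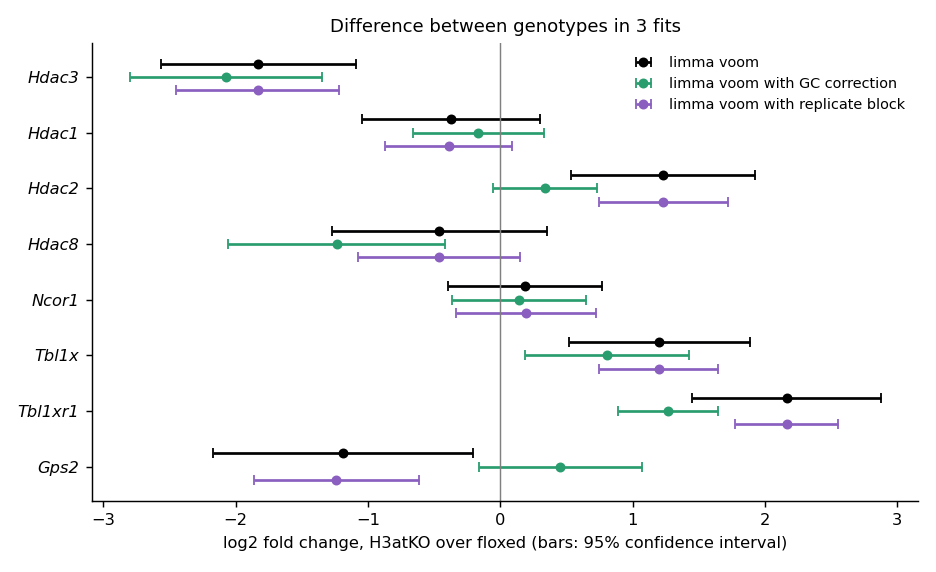
Log2 fold change of H3atKO over floxed for the 8 genes, with 95% confidence intervals, from limma voom (black), with GC correction (green) and with the replicate number as a block (purple). *Hdac3* stayed near -1.83 to -2.07 and *Tbl1xr1* above 1 in each fit, *Hdac2* moved from 1.23 to 0.34 with the GC correction, and *Gps2* moved from -1.19 to 0.45.

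Among the other deacetylases, *Hdac2* was called upregulated by limma voom and its closest relative *Hdac1* was not called, a difference between the pair that did not hold after GC correction. The coding sequences of the pair were 75.9% identical over 1446 aligned bases, but no identical run was longer than 17 bases, so that reads of the one gene can be told from those of the other. A stretch of 60 bases from exon 8 of both genes is printed to show how the mouse paralogues are separated, in coding direction, with the 8 bases that differ in capitals. The *Hdac2* stretch lies at chr10:36993791-36993850 on the plus strand and the *Hdac1* stretch at chr4:129519086-129519145 on the minus strand of GRCm38, both from the GENCODE M21 transcripts.
Hdac2: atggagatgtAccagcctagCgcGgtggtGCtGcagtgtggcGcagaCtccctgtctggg
Hdac1: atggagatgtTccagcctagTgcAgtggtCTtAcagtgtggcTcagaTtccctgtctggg

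*Hdac2* (ENSMUSG00000019777, chromosome 10 from 36974544 to 37001889, plus strand) rose in H3atKO pools. Its normalized expression was 49.1, 62.8 and 98.3 cpm in floxed and 141, 157 and 176 cpm in H3atKO pools, with every H3atKO pool above every floxed pool. The mean was 70.1 ± 25.4 cpm (SD, n = 3) in floxed pools and 158 ± 17.4 cpm (SD, n = 3) in H3atKO pools, and the log2 fold change was 1.23 with a standard error of 0.30 (adjusted p = 0.0386, limma). *Hdac2* transcripts are poor in G and C, at 41.9%, above only 13.0% of the genes tested. After GC correction the log2 fold change was 0.34 (95% confidence interval -0.05 to 0.73, adjusted p = 0.213, limma), so the call was lost although the groups still did not overlap. The call was also lost without floxed replicate 1 or 2 (adjusted p = 0.0952 or 0.139, limma) and without H3atKO replicate 1, 2 or 3 (adjusted p = 0.0882, 0.0844 or 0.13, limma).

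*Hdac1* (ENSMUSG00000028800, chromosome 4 from 129516104 to 129542713, minus strand) was not called. Its normalized expression was 27.3, 24.6 and 18.7 cpm in floxed and 21.0, 16.1 and 16.8 cpm in H3atKO pools, and the groups overlapped. The log2 fold change was -0.37 with a 95% confidence interval from -1.04 to 0.30 (adjusted p = 0.334, limma), and -0.17 after GC correction (adjusted p = 0.609, limma). Its GC content, 49.95%, is near the median. Of its 50-base stretches, 35.3% also occur in transcripts of other genes and 31.7% in *Gm10093*, an *Hdac1* pseudogene that received between 8 and 29 counts per pool. Reads of this length from such stretches can align to more than 1 place, and the counting gave such reads to no gene, so the level of *Hdac1* per length is uncertain. No 50-base stretch of *Hdac2*, *Hdac3*, *Hdac8* or *Tbl1x* was shared with another gene.

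*Hdac8* (ENSMUSG00000067567, X chromosome from 102284639 to 102505359, minus strand) encodes the class I member that works outside the corepressor complexes and deacetylates the cohesin subunit SMC3. It had the lowest expression of the 8 genes, with 277, 352 and 266 counts in floxed and 128, 110 and 66 counts in H3atKO pools. In normalized expression this was 6.08, 8.46 and 6.46 cpm in floxed and 5.27, 5.61 and 4.17 cpm in H3atKO pools. The groups did not overlap, by a narrow margin between floxed replicate 1 and H3atKO replicate 2. The log2 fold change was -0.46 with a 95% confidence interval from -1.28 to 0.35 (adjusted p = 0.325, limma). Its GC content is 43.0%, above only 17.4% of the genes tested, and after GC correction the log2 fold change was -1.24 (adjusted p = 0.0700, limma). With the GC correction and the replicate block together the fall was called, at a log2 fold change of -1.25 (adjusted p = 0.0199, limma).

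The class I deacetylases changed places within the pools. Counts per kilobase of exon were expressed as each gene's share of the sum over the 4 genes in the same pool, so that the scaling between libraries cancels. *Hdac3* made up 45.8%, 46.3% and 36.1% of this sum in floxed and 14.9%, 11.2% and 6.59% in H3atKO pools. The mean share was 42.7% ± 5.75 (SD, n = 3) in floxed pools and 10.9% ± 4.14 (SD, n = 3) in H3atKO pools (two-sided exact permutation test, p = 0.1, the lowest value possible with 3 pools against 3). *Hdac2* made up 29.5%, 32.8% and 48.8% of the sum in floxed and 69.3%, 76.2% and 81.5% in H3atKO pools, without overlap between the groups (exact permutation test, p = 0.1). It was the most abundant class I transcript in every H3atKO pool, whereas *Hdac3* was the most abundant in floxed replicates 1 and 2 and *Hdac2* in floxed replicate 3. The share of *Hdac1* was 16.7% ± 4.61 (SD, n = 3) in floxed pools and 11.2% ± 1.92 (SD, n = 3) in H3atKO pools, which overlapped (exact permutation test, p = 0.2), and that of *Hdac8* was 3.48% ± 0.567 (SD, n = 3) and 2.23% ± 0.387 (SD, n = 3). After GC correction the share of *Hdac3* was 40.1% ± 4.01 (SD, n = 3) in floxed pools and 12.4% ± 3.72 (SD, n = 3) in H3atKO pools, and that of *Hdac2* 42.8% and 70.1%. When the shared stretches of *Hdac1* were left out of its length, the *Hdac3* share was 39.1% in floxed and 10.2% in H3atKO pools. A share falls when another gene of the sum rises, so these values show the composition and not the change of a single gene.

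**Figure D3:**
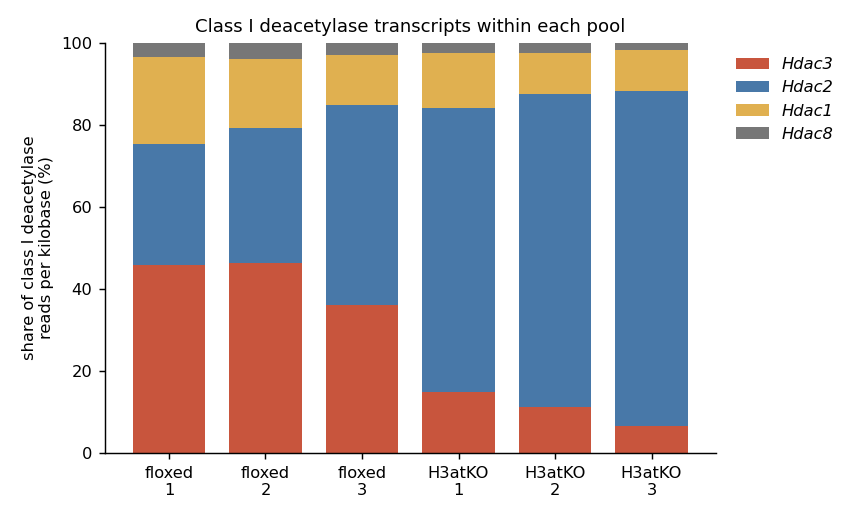
Share of *Hdac3* (red), *Hdac2* (blue), *Hdac1* (yellow) and *Hdac8* (grey) in the reads per kilobase of the 4 class I deacetylases, in percent, 1 bar per pool. The *Hdac3* share lay between 36.1% and 46.3% in floxed and between 6.59% and 14.9% in H3atKO pools.

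Among the subunits of the corepressor complex, the platform gene *Ncor1* (ENSMUSG00000018501, chromosome 11 from 62316426 to 62458541, minus strand) showed no call in either direction. *Ncor1* encodes the large scaffold that binds nuclear receptors at its one end and HDAC3, TBL1 proteins and GPS2 at the other. Its normalized expression was 262, 329 and 219 cpm in floxed and 260.2, 314 and 340.4 cpm in H3atKO pools, and the groups overlapped. The log2 fold change was 0.19 with a 95% confidence interval from -0.39 to 0.77 (adjusted p = 0.576, limma), and 0.14 after GC correction (adjusted p = 0.675, limma). The sign turned when library size was used without TMM factors, which moved the median log2 fold change of all genes from -0.09 to -0.94, and *Ncor1* then stood at -0.67. Its distance above that median was 0.28 under both scalings. With sample quality weights its log2 fold change was -0.11 (adjusted p = 0.627, limma). Its exons share 82 bases with *Pigl* on the opposite strand.

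*Tbl1x* and *Tbl1xr1* encode paralogous WD40 repeat proteins that bind NCOR1 and histones and serve in the exchange of corepressors for coactivators. Both rose in H3atKO pools. The coding sequences were 77.5% identical over 1542 aligned bases, and no identical run was longer than 20 bases. A stretch of 60 coding bases is shown for the pair because both genes were called in the same direction, so that each call needs reads that belong to that gene alone. The 9 differing bases are in capitals. The *Tbl1xr1* stretch is in exon 7 at chr3:22190976-22191035 and the *Tbl1x* stretch in exon 6 at chrX:77647853-77647912, both on the plus strand of GRCm38 and from the GENCODE M21 transcripts.
Tbl1xr1: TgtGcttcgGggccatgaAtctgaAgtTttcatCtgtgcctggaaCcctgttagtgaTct
Tbl1x: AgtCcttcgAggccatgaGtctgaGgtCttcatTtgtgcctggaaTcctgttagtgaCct

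*Tbl1xr1* (ENSMUSG00000027630, chromosome 3 from 22076652 to 22216594, plus strand) showed the largest rise of the 8 genes. Its counts were 1627, 1500 and 2400 in floxed and 3802, 3327 and 4015 in H3atKO pools, although the H3atKO libraries were smaller. Its normalized expression was 35.7, 36.1 and 58.3 cpm in floxed and 157, 169.6 and 254 cpm in H3atKO pools. All H3atKO pools were above all floxed pools. The mean was 43.4 ± 13.0 cpm (SD, n = 3) in floxed pools and 193 ± 52.8 cpm (SD, n = 3) in H3atKO pools, 4.46 times as high, and the log2 fold change was 2.16 with a standard error of 0.31 (adjusted p = 0.0136, limma). Its GC content, 41.9%, is as low as that of *Hdac2*, and after GC correction the log2 fold change was 1.27 with a 95% confidence interval from 0.89 to 1.65 (adjusted p = 0.0130, limma). The adjusted p from limma was 0.0776 without floxed replicate 2 and 0.0549 without H3atKO replicate 3.

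*Tbl1x* (ENSMUSG00000025246, X chromosome from 77511013 to 77662983, plus strand) had 133, 183 and 157 cpm in floxed and 256, 483 and 374 cpm in H3atKO pools, with no overlap. The mean was 158 ± 24.9 cpm (SD, n = 3) in floxed pools and 371 ± 113 cpm (SD, n = 3) in H3atKO pools, and the log2 fold change was 1.20 with a standard error of 0.29 (adjusted p = 0.0386, limma). Its GC content is 46.0%. After GC correction the log2 fold change was 0.80 with a 95% confidence interval from 0.18 to 1.42 and the call was lost (adjusted p = 0.0967, limma), and with the replicate block beside the correction the rise was called (adjusted p = 0.0377, limma). The adjusted p from limma was 0.0992 or 0.124 without floxed replicate 1 or 2, and 0.0624, 0.0910 or 0.129 without H3atKO replicate 1, 2 or 3.

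*Gps2* (ENSMUSG00000023170, chromosome 11 from 69913888 to 69916591, plus strand) encodes a small subunit that joins NCOR1 and the TBL1 proteins. Its normalized expression was 27.9, 18.9 and 12.4 cpm in floxed and 9.64, 7.29 and 7.71 cpm in H3atKO pools, so that every H3atKO pool was below every floxed pool. The mean was 19.7 ± 7.77 cpm (SD, n = 3) in floxed pools and 8.21 ± 1.25 cpm (SD, n = 3) in H3atKO pools. The log2 fold change of -1.19 with a standard error of 0.42 did not pass the test (adjusted p = 0.0760, limma), whereas with the replicate block it was -1.24 and did (adjusted p = 0.0102, limma). Without floxed replicate 3 it was -1.48 and passed as well (adjusted p = 0.0140, limma), and so it did with edgeR's quasi-likelihood test (adjusted p = 0.0416) and DESeq2 (adjusted p = 0.0118). *Gps2* has the highest GC content of the 8 genes, 56.6%, above 86.9% of the genes tested. After GC correction the sign turned, to a log2 fold change of 0.45 (adjusted p = 0.274, limma), and the groups overlapped.

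**Figure D4:**
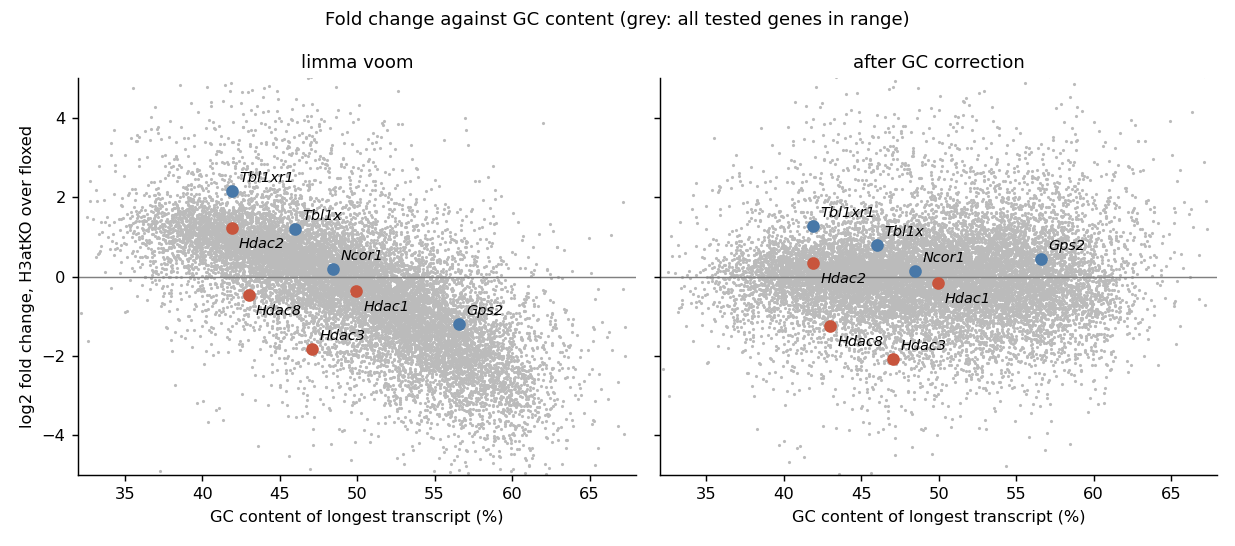
Log2 fold change of H3atKO over floxed (y axis, cropped at -5 and 5) against the GC content of the longest transcript in percent (x axis, cropped at 32 and 68) for all genes tested (grey), the deacetylases (red) and the corepressor subunits (blue), before (left) and after (right) GC correction. The grey cloud slopes downward on the left and is level on the right. *Hdac3* lies below the cloud's centre in both panels and *Tbl1xr1* above it, whereas *Gps2* and *Hdac2* follow the slope.

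Ratios between 2 genes of like GC content within a pool are free of library scaling and largely of the GC trend. In all, 12 ratios of counts per kilobase were computed, and with 3 pools against 3 the exact permutation test cannot go below p = 0.1, adjusted or not. *Tbl1xr1* and *Hdac2* have the same GC content to 3 digits, and their ratio was 0.365, 0.288 and 0.298 in floxed and 0.557, 0.541 and 0.724 in H3atKO pools. On the geometric mean the ratio was 1.91 times as high in H3atKO pools, without overlap (two-sided exact permutation test, p = 0.1). The ratio of *Hdac3* to *Tbl1x* was 0.902, 0.765 and 0.728 in floxed and 0.186, 0.0758 and 0.0600 in H3atKO pools. The ratio of *Hdac3* to its scaffold *Ncor1* was 0.851 ± 0.0909 (SD, n = 3) in floxed pools and 0.222 ± 0.107 (SD, n = 3) in H3atKO pools, and that of *Tbl1x* to *Ncor1* was 1.08 ± 0.201 (SD, n = 3) and 2.19 ± 0.532 (SD, n = 3). For *Hdac8* to *Hdac2* the ratio was 0.114, 0.125 and 0.0608 in floxed and 0.0345, 0.0329 and 0.0219 in H3atKO pools. None of these ratios overlapped between the genotypes, before or after GC correction.

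Of the other 7 ratios, 4 did not overlap between the genotypes before or after GC correction, namely those of *Hdac3* to *Hdac1*, *Hdac2* and *Hdac8* and that of *Tbl1xr1* to *Ncor1* (exact permutation test, p = 0.1 for each), and the other 3 overlapped in 1 or both. The ratio of *Tbl1xr1* to *Tbl1x* was 0.213, 0.156 and 0.294 in floxed and 0.484, 0.278 and 0.537 in H3atKO pools, so the groups overlapped, and a larger rise of the one paralogue than of the other was not shown (two-sided exact permutation test, p = 0.2). The ratio of *Gps2* to *Ncor1* was 0.850, 0.459 and 0.451 in floxed and 0.296, 0.186 and 0.181 in H3atKO pools, and overlapped after GC correction (exact permutation test, p = 0.3). The ratio of *Hdac2* to *Hdac1*, 2.46 in floxed and 6.94 in H3atKO pools on average, also overlapped after GC correction (exact permutation test, p = 0.3).

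**Figure D5:**
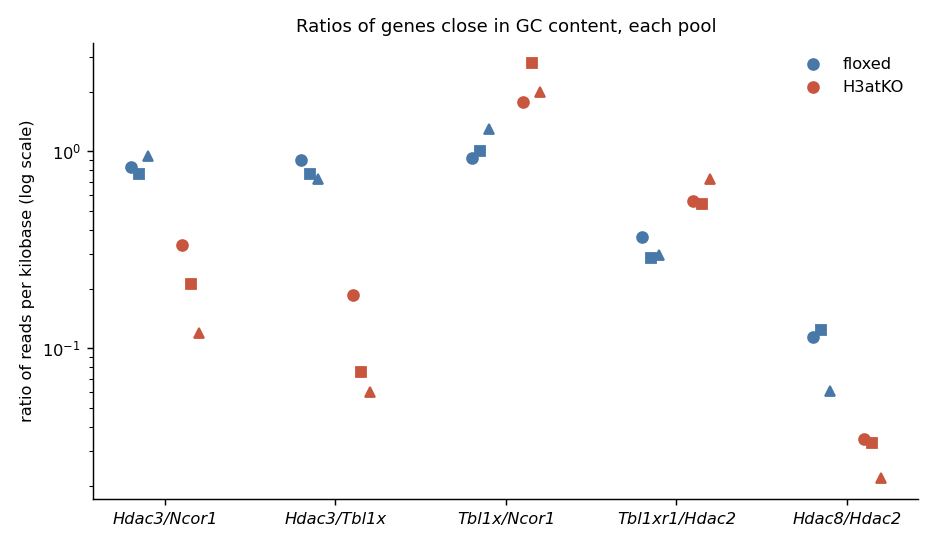
Ratios of counts per kilobase between genes of like GC content in each pool (y axis, log scale), floxed in blue and H3atKO in red, with circle, square and triangle for replicates 1, 2 and 3. *Hdac3* relative to *Ncor1* or *Tbl1x* and *Hdac8* relative to *Hdac2* were lower in every H3atKO pool, and *Tbl1x* relative to *Ncor1* and *Tbl1xr1* relative to *Hdac2* were higher.

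The levels of the 8 genes were also ranked per length. In cpm per kilobase of exon, the floxed pools had on average 22.4 for *Tbl1x*, 21.1 for *Ncor1*, 17.7 for *Hdac3*, 15.7 for *Hdac2*, 12.3 for *Gps2*, 6.84 for *Hdac1*, 4.87 for *Tbl1xr1* and 1.45 for *Hdac8*. Neighbours in this order overlapped in range, except that *Tbl1xr1* was above *Hdac8*. In H3atKO pools the levels were 52.6 for *Tbl1x*, 35.4 for *Hdac2*, 23.8 for *Ncor1*, 21.7 for *Tbl1xr1*, 5.21 for *Hdac1*, 5.12 for *Gps2*, 5.05 for *Hdac3* and 1.04 for *Hdac8*. Here *Hdac2* was above *Ncor1*, *Tbl1xr1* above *Hdac1* and *Hdac3* above *Hdac8* without overlap, whereas *Hdac1*, *Gps2* and *Hdac3* overlapped in range. Within each H3atKO pool *Hdac1* was narrowly above *Gps2*, at 6.11, 4.66 and 4.86 against 6.01, 4.55 and 4.81. All these levels are without GC correction. In H3atKO replicates 1 and 2 *Hdac3* was above both *Hdac1* and *Gps2*, and in replicate 3 below both.

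Beyond the 8 genes, 63 genes of related complexes were listed, namely other NCoR partners, the Sin3, NuRD, CoREST and MiDAC complexes of class I deacetylases, nuclear receptors and repressors that recruit them, and the opposing acetyltransferases and coactivators. All 63 were tested, and 3 were called upregulated and 6 down-regulated by limma, against 9.42% and 7.07% of all genes. The median log2 fold change was -0.39, against -0.09 over all genes, and turned to 0.07 after GC correction, against 0.03 over all genes. With the GC correction 4 were upregulated, against 5.59% of all genes, and none was down-regulated, against 3.11%. The fit with the replicate block had 13 upregulated and 25 down-regulated genes, against 24.8% and 28.7% of all genes. The share called was thus near that of all genes, 16.5% without and 53.5% with the block. With limma voom alone, no list had more than 3 genes called. The 4 genes of the GC-corrected fit were *Ppara*, *Bcl6*, *Chd3* and *Crebbp*, and the last 3 are named here because of that call. Their corrected log2 fold changes were 1.22 for the repressor *Bcl6* (adjusted p = 0.0336, limma), 1.99 for the NuRD helicase *Chd3* (adjusted p = 0.0219, limma) and 1.08 for the acetyltransferase *Crebbp* (adjusted p = 0.0474, limma). Without the correction none of them was called. The log2 fold changes were then 0.87 for *Bcl6* (adjusted p = 0.0832, limma), 0.45 for *Chd3* (adjusted p = 0.422, limma) and 0.49 for *Crebbp* (adjusted p = 0.135, limma).

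Among the 4 other NCoR partners, *Zbtb33*, which encodes the methyl-DNA binding protein Kaiso, rose with a log2 fold change of 1.70 (adjusted p = 0.0323, limma). Of the 15 Sin3 genes, *Rbbp7*, which encodes a histone chaperone, rose by 0.99 on the log2 scale (adjusted p = 0.0435, limma) and *Suds3*, a core subunit of the complex, fell by 1.25 on the log2 scale (adjusted p = 0.0465, limma). None of the 9 NuRD genes was called by limma voom. With the replicate block 1 was upregulated and 6 were down-regulated, against 24.8% and 28.7% of all genes. With the GC correction 1 was upregulated and none down-regulated, against 5.59% and 3.11%. Block and correction together gave 2 upregulated and 1 down-regulated, against 13.1% and 9.71%. The median log2 fold change of the 9 genes was -0.62, and 0.23 after GC correction. *Hmg20b* of the CoREST complex, with 1 of 7 genes called, fell by 1.86 on the log2 scale (adjusted p = 0.0493, limma). *Dnttip1*, the dimerization subunit of MiDAC and 1 of 3 genes measured there, fell by 1.86 on the log2 scale (adjusted p = 0.0438, limma). After GC correction none of these 5 genes was called, and *Hmg20b* turned to a log2 fold change of 0.49. The corrected log2 fold changes were 0.62 for *Zbtb33*, 0.41 for *Rbbp7*, -0.46 for *Suds3* and -0.59 for *Dnttip1*. With the replicate block beside the correction, *Zbtb33* was called (adjusted p = 0.0489, limma).

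Of the 13 receptors and repressors, *Ppara*, the fatty acid receptor of oxidative tissues, rose from 6.24, 4.59 and 5.83 cpm in floxed to 25.6, 30.8 and 14.2 cpm in H3atKO pools. Its log2 fold change was 2.05 (adjusted p = 0.0248, limma), and 2.58 after GC correction (adjusted p = 0.0118, limma). *Rarg*, the retinoic acid receptor gamma, and *Thra*, the thyroid hormone receptor alpha, fell by 2.61 (adjusted p = 0.0206, limma) and by 3.03 on the log2 scale (adjusted p = 0.0347, limma). Their GC contents are 58.8% and 59.8%, and after GC correction their log2 fold changes were -0.55 and -0.81, neither called. With the replicate block beside the correction, *Thra* was called at a log2 fold change of -0.82 (adjusted p = 0.0388, limma). *Pparg* stood at a log2 fold change of -0.39 (adjusted p = 0.293, limma). Of the 12 acetyltransferases and coactivators, *Kat2a*, which encodes the acetyltransferase GCN5, fell by 2.41 on the log2 scale (adjusted p = 0.0447, limma), and by 0.59 after GC correction, where it was not called.

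Of 8 lists of cell type markers, 3 had summed levels that did not overlap between the genotypes (brown or beige adipocyte, stromal progenitor and endothelial). Of all genes tested, taken singly and not as sums, 51.7% did not overlap. All 8 adipocyte markers, from *Adipoq* to *Cd36*, had counts in every pool, and their summed expression lay between 18748 and 36812 cpm in floxed and between 21963 and 39107 cpm in H3atKO pools, with none of the 8 called. *Fabp4* and *Cd36* made up most of this sum. Without them it was 12581, 7407 and 3211 cpm in floxed and 2649, 4728 and 2762 cpm in H3atKO pools, and the lipases *Lipe* and *Pnpla2* had log2 fold changes of -3.04 (adjusted p = 0.0524, limma) and -2.06 (adjusted p = 0.0909, limma). The summed expression of 7 brown or beige adipocyte markers lay between 26.8 and 93.7 cpm in floxed and between 312 and 1154 cpm in H3atKO pools, and 3 of the 7 were called upregulated (*Dio2*, *Elovl3* and *Ppara*, the last of which is also among the listed receptors), against 9.42% of all genes. Most of the H3atKO sum was *Elovl3*, with counts of 192, 9 and 40 in floxed pools and 17529, 5559 and 2720 in H3atKO pools. Without it the sum was 89.5, 26.6 and 46.3 cpm in floxed and 433, 126 and 140.1 cpm in H3atKO pools, still without overlap. The counts of *Cox7a1* were 199, 96 and 63 in floxed pools and 80, 66 and 10 in H3atKO pools. Stromal progenitor markers summed to between 1774 and 6717 cpm in floxed and between 990.1 and 1286 cpm in H3atKO pools. Of these, 2 of 8 were called down-regulated (*Pi16* and *Dpt*), against 7.07% of all genes. *Pdgfra*, *Dpp4*, *Col3a1* and *Ly6a* overlapped between the genotypes, and *Col1a1* and *Cd34* were lower in every H3atKO pool. Endothelial markers summed to between 621 and 908 cpm in floxed and between 429 and 571 cpm in H3atKO pools. Here 2 of 5 were called down-regulated (*Pecam1* and *Cdh5*). *Kdr* and *Emcn* overlapped between the genotypes, and *Tek* was lower in every H3atKO pool. For 7 macrophage markers the sum was 666, 416 and 2241 cpm in floxed and 562, 339 and 589 cpm in H3atKO pools, which overlapped. Of these markers 3 were called down-regulated (*Csf1r*, *C1qa* and *C1qb*), against 7.07% of all genes. The others overlapped between the genotypes when scaled by library size and TMM factor. Among them, *Mrc1* and *Adgre1* were higher in every H3atKO pool than in floxed replicates 1 and 2, and lower than in floxed replicate 3. Lymphocyte markers ranged from 6.81 to 126 cpm in floxed and from 22.6 to 402 cpm in H3atKO pools, with 1 of 9 called upregulated (*Trac*). Skeletal muscle markers ranged from 396 to 2340 cpm and from 1.77 to 2990 cpm, with none called, and of 5 erythroid markers 1 was called down-regulated (*Alas2*) and *Hba-a2* was at 0 in 1 pool, H3atKO replicate 3. All these marker sums, fold changes and calls are without GC correction. A difference that follows GC content cannot be told apart here from one of genotype. The part of any of these cells in the differences of the 8 genes was not tested.

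The genes whose profile over the 6 pools was most like that of *Hdac3* were sought by the root mean square difference of log2 cpm, each gene centred on its mean, among 8394 genes with a mean of at least 3 log2 cpm. They were *Lgals9* (galectin 9) at a difference of 0.14, *Tmem44* at 0.15 and *Akap8l* at 0.17 on the log2 scale. *Lgals9* had 53.6, 54.8 and 42.6 cpm in floxed and 20.2, 17.8 and 8.53 cpm in H3atKO pools. All 3 genes had the same order of pools within H3atKO as *Hdac3*, but they were picked for likeness over these same pools. The likeness is a description over 6 pools that share their libraries and the GC trend.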

How the data were processed

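The authors pooled RNA from 2 or 3 mice per sample, made stranded poly(A)-selected libraries, trimmed reads with cutadapt 1.3, aligned them to GRCm38 with STAR 2.4.2a and counted them per Ensembl gene with HTSeq 0.6.1. They deposited raw counts for 46517 genes, 1 file per sample. Lines for reads given to no gene were left out of library sizes. They held between 37.3% and 51.7% of all tallied alignments.

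As in the study's methods, a gene was kept if 1 or more samples reached 1 cpm, libraries were scaled with TMM (edgeR 4.0.16) and genotypes compared with limma 3.58.1 (voom, moderated test) in R 4.3.3. Calls were made at a Benjamini-Hochberg adjusted p under 0.05 over 14967 genes. Alternatives were edgeR's quasi-likelihood test, DESeq2 1.42.0, library size alone, RLE factors, other filters, quality weights, a replicate block, a GC correction (robust loess, span 0.3), the block with it, no mitochondrial genes, and each sample left out. Symbols, positions, exon lengths, GC content and sequences came from GENCODE M21 (46005 identifiers matched). Paralogues were aligned with Biopython.

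The genotypes share replicate numbers in the labels. Deviations of same-numbered samples from the group means correlated with r of 0.510, 0.389 and 0.264 across genes. Such correlations were not computed for samples of different number. The numbers were taken as pairs only in the fits with the replicate block. All other fits, the permutation tests and the statements on overlap left the pairing out and set every floxed pool against every H3atKO pool. The rho with GC content also fell with the replicate number, from 0.800 to 0.623 and 0.0969 in floxed and from -0.433 to -0.504 and -0.711 in H3atKO pools. These correlations therefore cannot establish the pairing. What the replicate numbers stand for is not given in the sources used here. The labels do not say whether the pools of a genotype hold different mice, and p-values then measure only the spread between these pools.

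The members, gene lists, tests and alternatives were chosen with earlier results of these data known. Named are all members, the partner genes called by limma (at most 3 per list and direction) and the 3 genes most like *Hdac3*. *Pparg*, *Bcl6*, *Chd3*, *Crebbp*, *Gm10093*, *Pigl* and the cell type markers named were named beside these after their values were seen. A length without shared stretches was added after the data had been seen. The values of 1 listed gene are not reported here.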

Additional observations from a re-analysis of the deposited data

How the results depend on the processing

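With the replicate number as a block, 5 of the 8 genes were called in place of 4, the addition being *Gps2* at a log2 fold change of -1.24, and no other member's call changed without the GC correction. With the GC correction 2 were called, and with each pool left out in turn between 0 and 5, namely 0 without floxed replicate 2 or H3atKO replicate 3, 5 without floxed replicate 3 and otherwise 1. Of all genes, 8.70% were called with the GC correction. With a pool left out the share was 0.00673% without floxed replicate 2, 0.718% without H3atKO replicate 3 and 44.4% without floxed replicate 3. It lay between 1.62% and 3.57% in the other fits with a pool left out. The *Hdac3* log2 fold change lay between -2.11 and -1.56 in these fits, with an adjusted p from limma under 0.05 in 1 of 6, and the call held under the other 11 alternatives. Its share of class I reads differed by -35.1 to -27.0 percentage points under 10 alternatives. *Ncor1* turned to -0.67 with library size alone and -0.11 with quality weights, and *Gps2* turned to 0.45 with the GC correction, with or without the block. With library size alone, *Hdac1*, *Hdac8* and *Gps2* were also called down-regulated and *Hdac2* and *Tbl1x* were not called. Of the 63 partner genes 9 were called, against 25 with edgeR, 30 with DESeq2, 31 with library size alone, 18 with at least 10 counts in every sample, 41 with quality weights, 38 with the replicate block, 4 with the GC correction, 15 with the block and the correction, and between 0 and 31 with a pool left out. Calls over all genes numbered 2468, against 4665 with edgeR, 6400 with DESeq2, 5973 with library size alone, 8443 with quality weights, 8007 with the block, 1302 with the GC correction, and between 1 and 6557 with a pool left out. They numbered 3409 with the block and the correction. With at least 10 counts in every sample they numbered 3439 of 12466 genes, and 59 partner genes were tested. Why the counts moved was not tested. *Hdac8* is the member most limited by depth, with 66 counts in its smallest library.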
